A study of Mus musculus with 4 samples.

Results

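The nuclear genes for the proteins of the mitochondrial ribosome were followed in C3H/f+/+ mouse eyes of subjective and objective day. The members were the genes whose symbol in the deposited table begins with Mrpl or Mrps and a digit, pseudogene names left out. This rule gave 76 of the 22863 genes listed, and all 76 passed the filter on low values that left 17784 genes for testing. RNA with poly-A tails was sequenced from 4 samples, 2 of each condition, and each sample pooled 4 eyes of 1 female and 1 male mouse, from which the anterior part and the lens had been taken off, leaving retina, RPE, choroid and posterior sclera. C3H/f+/+ mice make melatonin and carry the normal form of the Pde6b gene that is mutated in other C3H mice. All mice had lived in 12 h of light and 12 h of darkness. The subjective day (SD) mice were kept in darkness for 18 h according to the methods of the study, for which another passage gives 30 h, and were taken at circadian time 6. The objective day (OD) mice had seen light in the morning, were dark-adapted for 1 h and were taken at zeitgeber time 6. Light history and the length of darkness therefore differ together between the conditions. The comparison asks which transcripts differ at the same hour of the day between eyes that had and had not seen light that morning.

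Mitochondria hold their own ribosomes, which translate the few mRNAs of the mitochondrial genome into core subunits of the respiratory chain and the ATP synthase. Their small subunit decodes the mRNA and their large subunit joins the amino acids. The 2 ribosomal RNAs are made in the mitochondrion, whereas every protein of the ribosome is encoded in the nucleus, translated in the cytosol and imported. Some of these proteins descend from bacterial ribosomal proteins and others exist only in mitochondria. Photoreceptors pack many mitochondria into their inner segments and are among the heaviest users of oxidative energy in the body.

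By the structural names of the proteins, 49 members belong to the large subunit and 26 to the small subunit. Mrps18a (mL66) and Mrps30 (mL65) carry small-subunit symbols although their proteins sit in the large subunit. Mrps36 is not counted in either, because its product is known as KGD4, a part of the alpha-ketoglutarate dehydrogenase complex of the citric acid cycle. The family includes 46 homologues of bacterial proteins, 27 proteins specific to mitochondria and 2 further paralogues of bacterial S18. Gene models of the same assembly (GRCm38) matched 75 members by identifier, spread over 17 chromosomes, and Mrpl33 was not matched.

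The deposited values are gene counts that had been adjusted to a common library size and are called adjusted counts here. They summed to between 33278417 and 35236783 in the 4 samples, totals that follow from the adjustment and do not give the sequencing depth. The sample SD 2 stood apart for the members before any comparison was made. Of the 76 members, 60 were lower in SD 2 than in SD 1, with a median log2 difference of -0.13, and 18 (23.7%) were lower by more than 0.25. Over all genes tested the same median was -0.017, and 11.4% were lower by more than 0.25. The 2 OD samples differed by a median of -0.07 over the members, with 54 of 76 lower in OD 2. The genes of the cytoplasmic ribosome moved in the same way, with 80 of 82 lower in SD 2 and a median of -0.26, as did 70 of 76 nuclear respiratory chain genes with a median of -0.12. Some values below are also given with 1 sample left out. Such a fit leaves 1 sample in a condition, which is then assumed to vary like the 2 samples of the other.

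**Figure D1:**
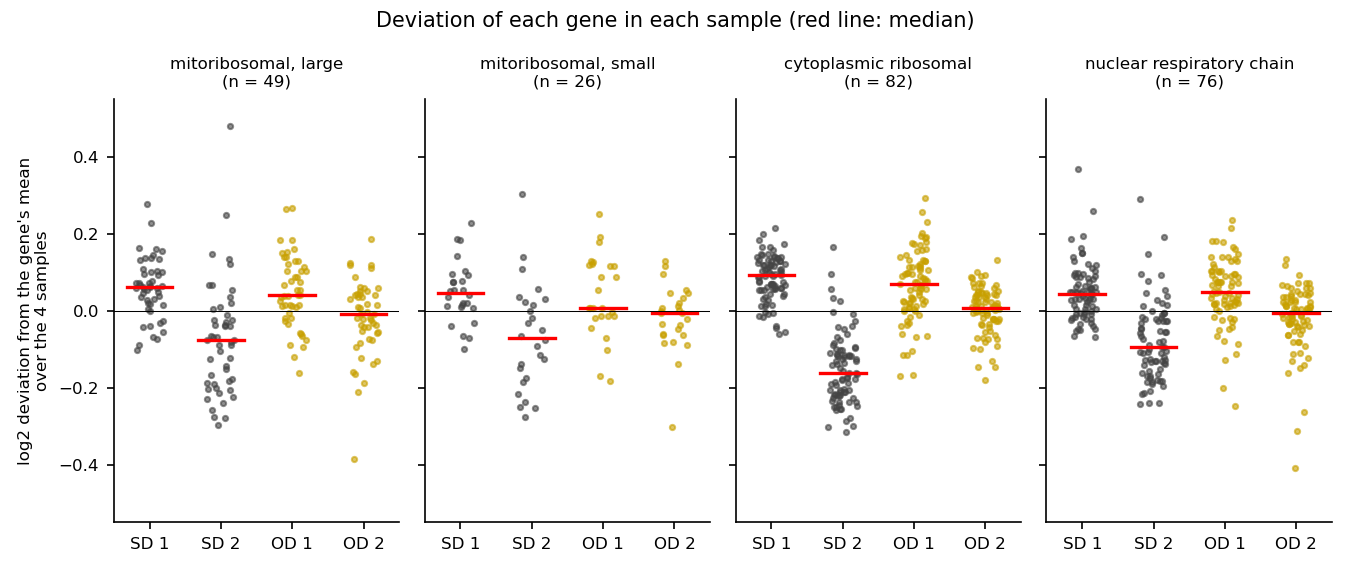
Deviation of each gene from its own mean over the 4 samples (y axis, log2 scale) in SD 1, SD 2, OD 1 and OD 2 (x axis), for large-subunit and small-subunit mitoribosomal genes, cytoplasmic ribosomal protein genes and nuclear respiratory chain genes. Each point is 1 gene and red lines are medians. The median of SD 2 lies below that of the other 3 samples in every panel, at -0.08 for the large and -0.07 for the small mitoribosomal subunit and at -0.16 for the cytoplasmic ribosome. In the panels of the large subunit and of the cytoplasmic ribosome 1 gene each extends beyond the axis.

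Mitoribosomal transcripts were of moderate abundance in the eye. In all, 75 of the 76 members had at least 100 adjusted counts in every sample, Mrpl53 being the exception. Per kilobase of the principal transcript, the median member had 453 adjusted counts, compared with 250 for all genes tested. The proteins of the cytoplasmic ribosome had a median of 3088 and the nuclear respiratory chain of 2666 on the same scale. The levels of single members ranged from 18.5 to 2275 adjusted counts per kilobase, although each ribosome holds most of these proteins in equal number. The lowest, Mrpl53, shares 88.0% of its exonic bases with another gene model on the same strand, and the next lowest was Mrpl35 at 89.0. The 5 highest were Mrps21 at 2275, Mrpl42 at 1787, Mrpl49 at 1679, Mrpl52 at 1650 and Mrpl54 at 1642. Mrps21 encodes a homologue of bacterial S21 in the small subunit, and the other 4 encode large-subunit proteins without a bacterial counterpart. The 3 lowest were Mrpl53 at 18.5, Mrpl35 at 89.0 and Mrpl1 at 99.5. The order depends on the length assigned to each gene: with the full exonic length Mrpl42 ranked 34th rather than 2nd, and Mrpl49 came first. Among the 5 highest, the ranges of each pair of neighbours over the 4 samples overlapped, as did those of Mrpl35 and Mrpl1, while Mrpl53 lay below all others.

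In total, the members took up 1614 and 1492 of every 1000000 adjusted counts in SD 1 and SD 2, and 1644 and 1639 in OD 1 and OD 2. As plain sums of adjusted counts they had 56868 and 52007 in SD and 57372 and 54545 in OD, where OD 2 lay below SD 1 and the conditions overlapped. The order of the conditions thus depended on the division by each sample's total, which was lowest in OD 2. Large-subunit transcripts together outweighed those of the small subunit by a ratio of 2.46 in SD 1, 2.38 in SD 2, 2.44 in OD 1 and 2.40 in OD 2. The range of this ratio in SD covered both OD values, so the balance of the subunits did not separate the conditions.

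When the conditions were compared gene by gene, the mitoribosomal genes differed little. With limma on log2(adjusted count + 1) and Benjamini-Hochberg adjustment over all 17784 genes, 1 of 76 members (1.32%) passed an adjusted p of 0.05, Mrps18c, which was lower in OD. Over all genes tested the share called was 8.51%, with 7.45% lower and 1.06% higher. The members' log2 fold changes of OD over SD ran from -0.54 to 0.30 with a median of 0.054, and the median over all genes was 0.015. By sign alone, 29 members were lower and 47 higher. A difference smaller than 0.2 on the log2 scale was seen in 63 members (82.9%), compared with 61.4% of all genes. The interquartile range was 0.22 log2 units for the members and 0.32 for all genes, while the median standard error was nearly the same, 0.0960 for the members and 0.0999 for all genes. Both OD samples lay on one side of both SD samples in 33 members (43.4%), 16 of them lower and 17 higher in OD, against 56.1% of all genes. The samples of the 2 conditions overlapped in the other 43. At an unadjusted p under 0.05 there were 8 members (10.5%) and 25.4% of all genes. Permuting 4 samples gives an exact two-sided p of 0.333 at the least for any gene, and each call therefore depends on limma's sharing of variance information between genes. Without SD 2 the sign of the members' median turned, to -0.030 with 45 lower and 31 higher, and the only member called was Mrpl20, with 1089 adjusted counts in SD 1, 849 in SD 2, 877 in OD 1 and 805 in OD 2, while 7.25% of all genes were called. That call sets OD against SD 1 alone. Leaving out OD 1 or OD 2 gave 0 members called by limma, beside 4.14% and 3.73% of all genes called. At an unadjusted p under 0.05 there were 4 and 5 members in limma. These 2 counts cannot be set against the shares of all genes called, which are after adjustment. Leaving out SD 1 gave 4 members called, beside 14.4% of all genes called.

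**Figure D2:**
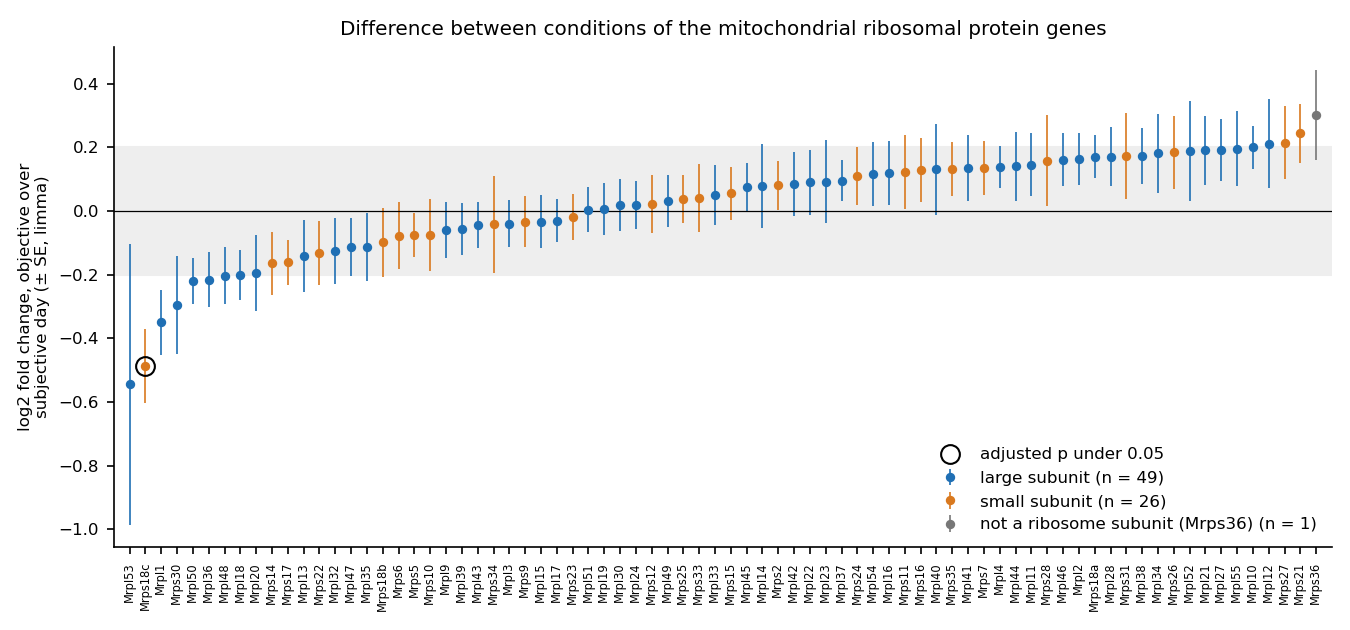
Log2 fold change of OD over SD with its standard error from limma (y axis) for the 76 members in rank order (x axis), coloured by ribosomal subunit. The grey band marks differences smaller than 0.2, which hold 63 of the 76 genes, and the circled gene, Mrps18c, is the one with an adjusted p under 0.05.

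Mrps18c encodes bS18m, the small-subunit protein that takes the place of bacterial S18. It lies on the forward strand at chr5:100798627-100804471 (GRCm38). Its adjusted counts were 273 and 296 in SD and 211 and 194 in OD. Both OD samples were thus below both SD samples, and the gap between the conditions exceeded the gap within either. The log2 fold change was -0.49 with a standard error of 0.12, or 28.6% lower in OD, with an adjusted p of 0.0474 in limma. Without a filter on low values the adjusted p in limma was 0.0535, and without a variance trend 0.133, at the same log2 fold change. With the GC trend removed it was 0.254, at a log2 fold change of -0.34. This call was thus at the edge of the threshold. It was lost when OD 1, OD 2 or SD 2 was left out, with adjusted p-values of 0.128, 0.235 and 0.122 and log2 fold changes of -0.55, -0.43 and -0.43, and it held without SD 1 with an adjusted p of 0.0364. Of the exonic bases of Mrps18c, 23.2% are shared on the same strand with the gene model Gm43511 of GENCODE M21, an annotation later than the authors'. If theirs held that model too, which was not checked, reads from there could be counted for either or for neither.

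Vertebrates have 3 genes derived from bacterial S18, whose products occupy different places in the mitochondrial ribosome. Mrps18b encodes mS40 of the small subunit and had 272 and 262 adjusted counts in SD and 255 and 243 in OD. Mrps18a encodes mL66 of the large subunit and had 1026 and 1050 in SD and 1191 and 1146 in OD. In all 3 genes the conditions did not overlap, as in 56.1% of all genes, with lower values in OD for Mrps18b and Mrps18c and higher values for Mrps18a. The log2 fold change of Mrps18b was -0.10 with a standard error of 0.11 and an adjusted p of 0.620 in limma. That of Mrps18a was 0.17 with a standard error of 0.07 and an adjusted p of 0.166. Neither of these passed the threshold, and whether the 3 paralogues differ from each other in response was not tested. An antisense gene, Gm16279, covers 30.5% of the exonic bases of Mrps18b, and without a stated strand setting its reads cannot be told from those of Mrps18b.

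The regions before the start sites of these 3 paralogues are shown because the genes share an ancestor and one of them is the member called. Each run is the 250 bases upstream of the RefSeq start (GRCm38.p6), written 5′ to 3′ on the strand of the gene. Capitals mark matches on either strand to the core of the binding site of NRF1, a factor known for driving nuclear genes of mitochondria (TGCGCA, the same on both strands), or to a site of the ETS family (CCGGAAG, or CTTCCGG on the other strand). The windows are chr17:46110754-46111003 on the forward strand for Mrps18a, chr17:35916441-35916690 on the reverse strand for Mrps18b and chr5:100798509-100798758 on the forward strand for Mrps18c.
Mrps18a: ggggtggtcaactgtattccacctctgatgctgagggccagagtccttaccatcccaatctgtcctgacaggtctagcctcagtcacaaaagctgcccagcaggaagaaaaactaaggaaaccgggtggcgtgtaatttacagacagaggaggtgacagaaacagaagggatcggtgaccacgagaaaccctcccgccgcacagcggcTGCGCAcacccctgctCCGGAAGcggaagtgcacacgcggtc
Mrps18b: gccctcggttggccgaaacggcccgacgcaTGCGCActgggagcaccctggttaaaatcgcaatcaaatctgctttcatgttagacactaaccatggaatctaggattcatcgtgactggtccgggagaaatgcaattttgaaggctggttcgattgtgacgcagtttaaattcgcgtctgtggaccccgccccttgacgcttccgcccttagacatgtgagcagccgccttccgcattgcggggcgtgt
Mrps18c: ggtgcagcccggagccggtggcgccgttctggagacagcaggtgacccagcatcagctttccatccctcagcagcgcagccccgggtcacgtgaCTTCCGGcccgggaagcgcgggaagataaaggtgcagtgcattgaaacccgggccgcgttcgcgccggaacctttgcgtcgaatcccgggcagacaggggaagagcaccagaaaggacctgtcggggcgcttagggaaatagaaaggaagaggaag
The window of Mrps18a holds 1 match to each motif, that of Mrps18b 1 NRF1 core and that of Mrps18c 1 ETS site. Neither motif is found in all 3 windows.

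Beside Mrps18c, the members with the lowest fold changes belonged to the large subunit. Mrpl1 encodes uL1m, the protein of the mobile stalk next to the tRNA exit site, and lies at chr5:96209493-96266727. Its adjusted counts were 376 and 417 in SD and 314 and 308 in OD, without overlap. The log2 fold change was -0.35 with a standard error of 0.10 and an adjusted p of 0.0812, and against SD 2 alone, with SD 1 left out, the adjusted p was 0.0444 in limma. Mrps30 (mL65) had 403 and 396 in SD but 383 and 276 in OD. OD 1 lay close to the SD samples and OD 2 well below them, and the log2 fold change of -0.30 had an adjusted p of 0.281. It was -0.06 without OD 2 and -0.53 without OD 1. Mrpl50, a mitochondria-specific protein, had 1033 and 972 in SD and 873 and 847 in OD. The replicates of each condition lay close together, and the log2 fold change was -0.22 with a standard error of 0.07 and an adjusted p of 0.112. Mrpl36, which encodes the small zinc-binding protein bL36m, had 463 and 472 in SD and 407 and 399 in OD. Here too the conditions were apart, by a log2 fold change of -0.22 with an adjusted p of 0.175. Mrpl53 had the lowest log2 fold change of all, -0.54, but rests on few reads. Its adjusted counts were 13.0 and 17.6 in SD and 7.49 and 13.4 in OD, they overlapped between the conditions, the standard error was 0.44, the log2 fold change moved from -0.16 without OD 1 to -0.93 without OD 2, and 88.0% of its exonic bases are shared with Gm42688 on the same strand.

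At the other end, no member passed the threshold. Mrps36, the dehydrogenase subunit, had 253 and 239 in SD and 344 and 267 in OD, with a log2 fold change of 0.30 and an adjusted p of 0.234. Its 2 OD samples differed from each other by more than OD 2 differed from either SD sample, and the log2 fold change was 0.12 without OD 1 and 0.48 without OD 2. Mrps21 had 1109 and 928 in SD and 1196 and 1208 in OD. The conditions did not overlap, but SD 1 was nearer to OD than to SD 2, and the log2 fold change of 0.24 had an adjusted p of 0.157. It was 0.12 with an adjusted p of 0.458 without SD 2, and 0.37 with an adjusted p of 0.0159 in limma without SD 1, when SD 2 alone stood for its condition. Mrps27, a small-subunit protein with RNA-binding repeats, had 520 and 473 in SD and 637 and 522 in OD, with a log2 fold change of 0.22 and an adjusted p of 0.292. Its log2 fold change was 0.07 without OD 1 and 0.36 without OD 2.

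**Figure D3:**
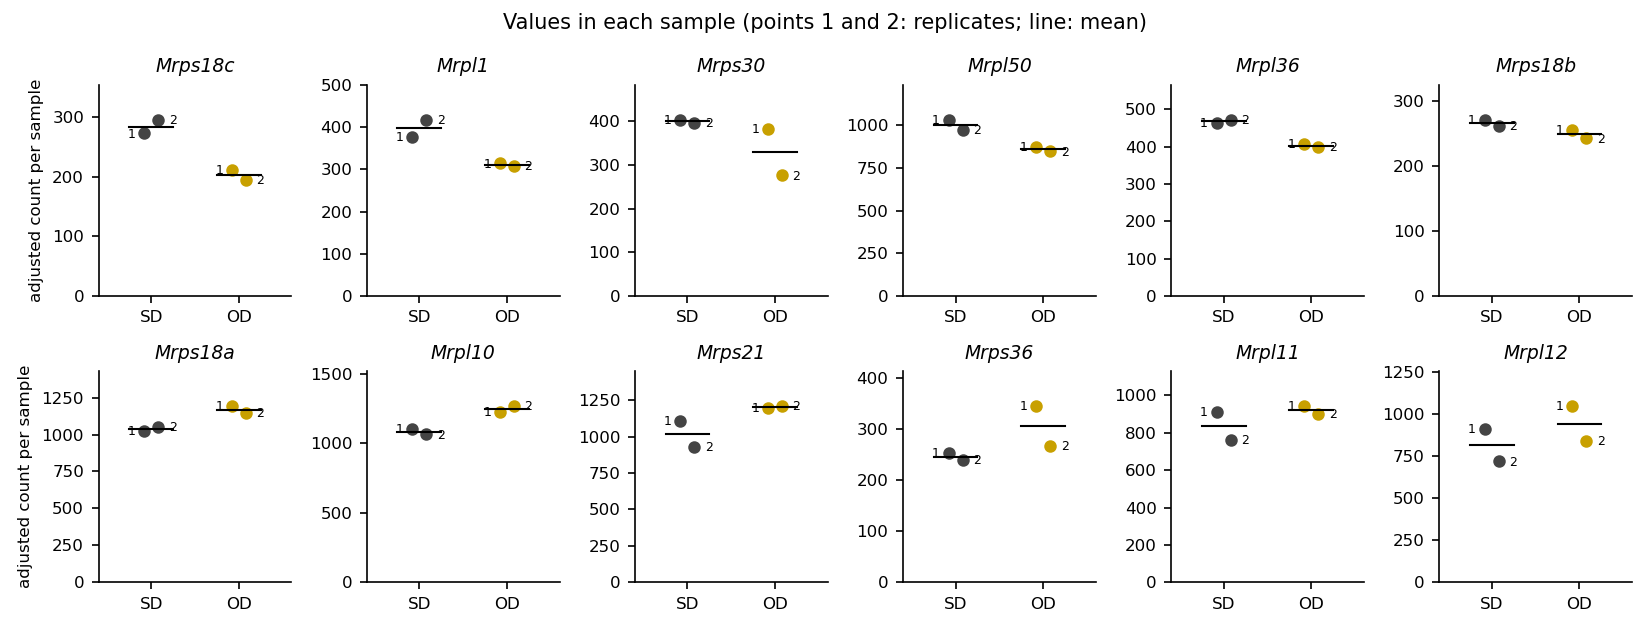
Adjusted counts (y axes, from 0) in the SD and OD samples for the 3 Mrps18 paralogues and 9 other members. Numbers beside the points are the replicates and lines are means. The genes were picked from the members named in the text, without Mrpl53. The conditions do not overlap in the genes shown except Mrpl11 and Mrpl12, which are among the 43 members whose conditions overlap. Over the family they do not overlap in 33 of 76 members (43.4%), against 56.1% of all genes. The called gene is Mrps18c, at 273 and 296 in SD and 211 and 194 in OD.

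Further members were chosen for their place in the ribosome. The stalk that recruits translation factors to the large subunit is built from Mrpl10, Mrpl12 and, at its base, Mrpl11. Mrpl10 had 1104 and 1065 in SD and 1225 and 1268 in OD, a tight separation of 0.20 log2 units with an adjusted p of 0.116. Mrpl12 had 916 and 720 in SD and 1049 and 843 in OD, so that SD 1 lay above OD 2. Its log2 fold change of 0.21 had an adjusted p of 0.392. Mrpl11 likewise overlapped, with 912 and 761 in SD and 942 and 902 in OD, a log2 fold change of 0.15 and an adjusted p of 0.40. Leaving out single samples moved Mrpl12 between 0.04 (without SD 2) and 0.38 (without SD 1), and Mrpl11 between 0.015 and 0.28 with the same samples left out. None of the 3 passed the test, and their positive sign is that of 47 of the 76 members. Mrps12, the homologue of bacterial S12 in the decoding centre, had 670 and 612 in SD and 686 and 618 in OD. Its log2 fold change was 0.02 with a standard error of 0.09. Mrpl3, which reaches towards the peptidyl transferase centre, had 805 and 806 in SD and 763 and 804 in OD, with a log2 fold change of -0.04, which was -0.0018 without OD 1 and -0.08 without OD 2. Mrpl45, which lies at the exit of the peptide tunnel and attaches the ribosome to the inner membrane, had 862 and 802 in SD and 863 and 890 in OD, with a log2 fold change of 0.08, which was 0.02 without SD 2 and 0.13 without SD 1. For these last 3 genes the difference between conditions was no larger than the spread between replicates of at least 1 condition.

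The split by subunit and by ancestry showed no larger differences. Of the 49 large-subunit genes, 18 were lower and 31 higher by sign, 0 were called, and the median log2 fold change was 0.08. For the 26 small-subunit genes these numbers were 11 lower and 15 higher, a median of 0.04 and 1 called. Homologues of bacterial proteins had a median of 0.04 over 46 genes, with Mrps18c called, and mitochondria-specific proteins had a median of 0.08 over 27 genes, with 0 called. Counting unadjusted p-values under 0.05, there were 6 in the large and 2 in the small subunit. These counts stand beside 8.51% of all genes called and 25.4% at an unadjusted p under 0.05. Of the 76 members, 30 (39.5%) had a difference between conditions larger than the difference between the 2 SD samples, compared with 54.7% of all genes, and 43 (56.6%) were lower in the sample numbered 2 than in the sample numbered 1 in both conditions, compared with 35.2% of all genes.

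Within the family, the difference between the conditions followed the base composition of the transcript. Across 75 members the log2 fold change of OD over SD had a Spearman correlation of 0.53 with the GC content of the longest transcript, given as a description over genes that share the same 4 libraries. Across 17536 genes it was 0.58. Among the 25 members with the lowest GC content, 38.6% to 46.9%, 17 of 25 were lower in OD and the log2 fold changes had a median of -0.07. Of the 25 members with intermediate GC content 9 were lower with a median of 0.08, and of the 25 with 52.6% or more, 3 were lower with a median of 0.14. For all genes in the same 3 ranges of GC content the medians were -0.18, 0.04 and 0.12. The median of the GC-poor mitoribosomal genes was thus less negative than that of all genes of like GC content, a difference that was not tested. The correlation was 0.67 over 48 large-subunit genes and 0.32 over 26 small-subunit genes. Mrps18c with 44.5% GC, Mrpl1 with 41.6%, Mrps30 with 40.4% and Mrpl50 with 42.3% are all among these 25 of lowest GC content. With the GC trend of all genes taken out of each sample, the relation turned within the family: the Spearman correlation over the members was -0.40, and the medians of the 25 members of lowest, intermediate and highest GC content were 0.14, 0.06 and 0.04. This correction thus took more from the GC-poor members than their own trend, and the values that follow depend on it. The log2 fold change of Mrps18c was -0.34 with an adjusted p of 0.254, that of Mrpl1 was -0.04, and Mrps30 and Mrpl50 changed sign to 0.09 and 0.04. Taken over 75 members, 22 were then lower and 53 higher, the median was 0.06, and 0 were called by limma, with 11 of 75 at an unadjusted p under 0.05. Over all genes these shares were 1.27% and 13.5%. The part of GC content in these differences was not tested further.

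**Figure D4:**
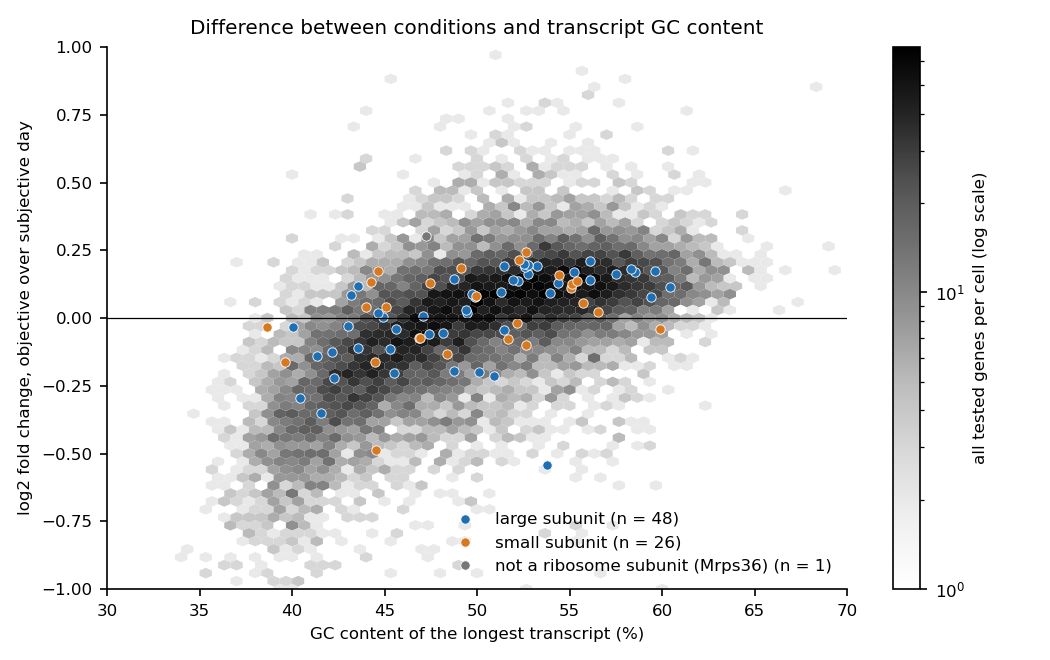
Log2 fold change of OD over SD (y axis) against the GC content of the longest transcript (x axis, %) for 75 members, coloured by subunit, over all 17536 genes with a known GC content (grey cells, log scale, 389 genes beyond the axes). Of the 25 members of lowest GC content 17 lie below 0, and of the 25 of highest GC content 3 do.

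SD 2 also differed from SD 1 along sequence features. The log2 difference of SD 2 minus SD 1 over the members had a Spearman correlation of -0.39 with GC content and of 0.40 with transcript length, so that the shorter and GC-richer mitoribosomal transcripts tended to be lower in SD 2. Over all genes these correlations were -0.24 and 0.17. For the 2 OD samples the correlation with GC content was -0.19 over the members and -0.02 over all genes. Mitoribosomal transcripts are short, with a median of 1764 bases for the longest transcript compared with 3144 for all genes tested.

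Genes that act on or beside the mitochondrial ribosome were counted in the same way, beside 8.51% of all genes called, 25.4% at an unadjusted p under 0.05 and 61.4% with a log2 difference under 0.2. Such a small difference was seen in 12 of 15 translation factors, 12 of 17 aminoacyl-tRNA synthetases and 16 of 23 rows of assembly factors. Among 6 ribosomal proteins outside the Mrpl and Mrps names, which include the GTP-binding protein Dap3, 0 were called and the median log2 fold change was 0.04. Mitochondrial translation factors had 1 of 15 called. This was Guf1, a GTPase related to bacterial LepA, with 1194 and 1291 adjusted counts in SD and 856 and 970 in OD, a log2 fold change of -0.45 and an adjusted p of 0.0223 in limma. With the GC trend removed its sign turned, to 0.19, and without OD 1 its adjusted p was 0.129. Of 23 rows for ribosome assembly factors, in which Nsun4 has 2, 1 was called. Mterfd1, which encodes MTERF3, a protein needed to assemble the large subunit, had 662 and 839 in SD and 516 and 511 in OD, with a log2 fold change of -0.54 and an adjusted p of 0.0346. The call of Mterfd1 was lost without OD 1, OD 2 or SD 2, at log2 fold changes of -0.55, -0.53 and -0.37 and adjusted p-values of 0.0846, 0.0986 and 0.0565, and with the GC trend removed, at a log2 fold change of -0.26. None of 17 mitochondrial aminoacyl-tRNA synthetase genes was called by limma, with 2 at an unadjusted p under 0.05. The cytoplasmic ribosome had 1 of 82 genes called, Rpl22l1, a paralogue of Rpl22, and a median log2 fold change of 0.08. The nuclear respiratory chain had 2 of 76 called, Uqcrb of complex III and Atp5j of the ATP synthase, and a median of 0.05. The 8.51% over all genes stands beside these counts too. Each call named here was lower in OD, as were most calls over all genes. Both of the last counts depended on SD 1, without which 28 cytoplasmic ribosomal and 13 respiratory chain genes were called, beside 14.4% of all genes. Leaving out SD 2, OD 1 or OD 2 moved these counts far less.

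The RNA partners of these proteins differed far more. The 12S ribosomal RNA, mt-Rnr1, had 9629 and 13997 adjusted counts in SD and 5051 and 3538 in OD, with a log2 fold change of -1.46 and an adjusted p of 0.00774. The 16S ribosomal RNA, mt-Rnr2, had 44010 and 55052 in SD and 22787 and 18104 in OD, with a log2 fold change of -1.28 and an adjusted p of 0.00558. Over all genes tested, the conditions did not overlap in 56.1%, and 8.51% were called. All 12 mitochondrial mRNAs listed were lower in both OD samples than in both SD samples, 10 of them called, at a median log2 fold change of -1.48. These RNAs come from libraries selected for poly-A tails, which are short on mitochondrial RNAs, and their GC content is low, with medians of 35.6% for the ribosomal RNAs and 36.5% for the mRNAs. With the GC trend removed the median of the 2 ribosomal RNAs was -0.54 and that of the mRNAs -0.70, and neither ribosomal RNA passed the threshold. Per 1000000 adjusted counts, the ribosomal RNAs took up 1522 and 1981 in SD and 798 and 650 in OD. The 76 protein genes took up between 1492 and 1644 in the same samples. In bulk tissue, fewer cells of a type and less RNA per cell cannot be told apart.

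**Figure D5:**
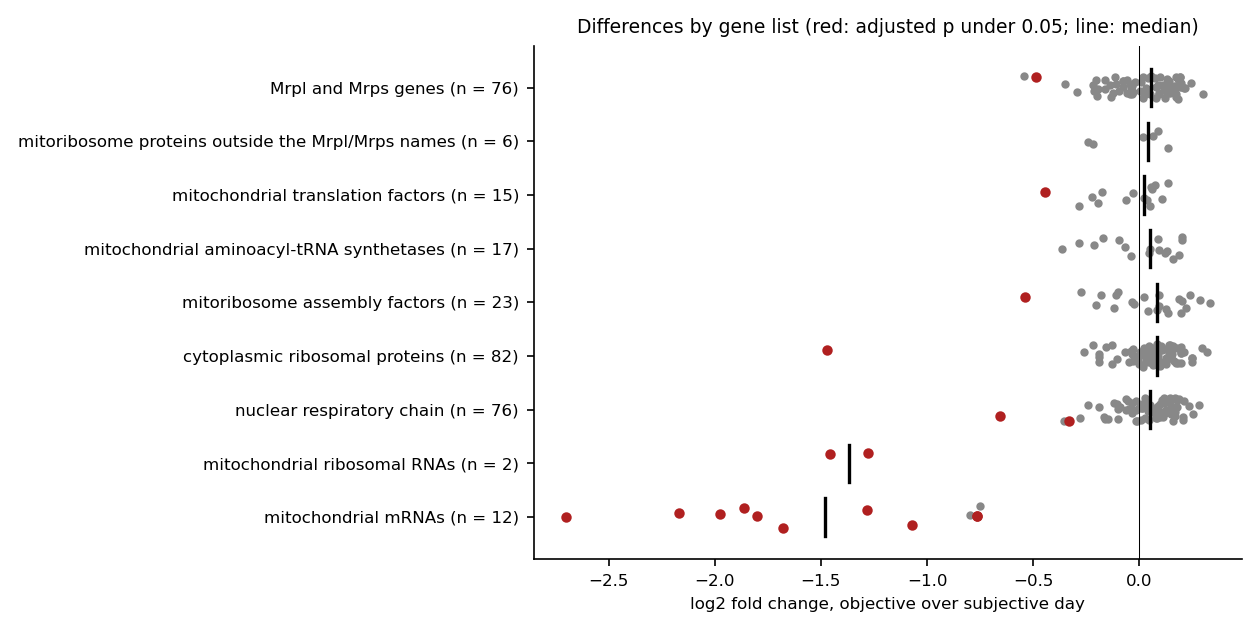
Log2 fold change of OD over SD (x axis) of each gene in the mitoribosomal family and in 8 further lists (y axis). Red points have an adjusted p under 0.05 and black lines are medians. The median of the Mrpl and Mrps genes is 0.05, close to those of the other nuclear lists, and the medians of the mitochondrial ribosomal RNAs and mRNAs are -1.37 and -1.48.

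Many mitoribosomal genes lie close to or within their neighbours. Of the 75 members with a gene model, 32 (42.7%) have a protein-coding gene on the opposite strand whose annotated start is within 1000 bases of their own, compared with 10.9% of 21951 protein-coding genes. In 1 case both genes are members: Mrpl46 and Mrps11 on chromosome 7 lie head to head and share 173 exonic bases. Mrpl46 had 553 and 522 adjusted counts in SD and 585 and 618 in OD, and Mrps11 had 688 and 555 in SD and 705 and 642 in OD. Their log2 fold changes were 0.16 and 0.12 with adjusted p-values of 0.280 and 0.553, so neither passed the test. Mrps18c itself starts 29 bases from Helq, a DNA helicase gene. In all, 31 members share exonic bases with another gene and 17 share at least 10%. Among the 44 members that share none, 15 were lower and 29 higher by sign, the median log2 fold change was 0.09 and 0 were called by limma, with 4 at an unadjusted p under 0.05, beside 8.51% and 25.4% of all genes.

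Promoters of 67 members were found in RefSeq, as 73 sequences with 1 or more start sites a gene. In the 250 bases before the start, the NRF1 core TGCGCA was present in 17 of 73 (23.3%), compared with 6.43% of 32851 mouse promoters of the same length. The ETS site CCGGAAG was likewise present in 17 (23.3%), compared with 6.91%. The YY1 site GATGGCG was found in 2 (2.74% compared with 2.18%) and the TATA box TATAAA in 5 (6.85% compared with 12.4%). All were searched on both strands. Member promoters were richer in GC, with a median of 58.4% compared with 52.4%, and the part of GC content in these shares was not tested. The window with the most NRF1 cores was that of Mrpl32 at chr13:14613038-14613287 on the reverse strand, shown with the cores in capitals together with that of Mrpl1, the member with the second smallest adjusted p, at chr5:96209865-96210114 on the forward strand, which holds neither motif. The GENCODE models of Mrpl1, Mrpl32, Mrps18a and Mrps18c begin upstream of the RefSeq start, so that the window of Mrpl1 lies wholly, and those of the other 3 partly, within the GENCODE gene.
Mrpl32: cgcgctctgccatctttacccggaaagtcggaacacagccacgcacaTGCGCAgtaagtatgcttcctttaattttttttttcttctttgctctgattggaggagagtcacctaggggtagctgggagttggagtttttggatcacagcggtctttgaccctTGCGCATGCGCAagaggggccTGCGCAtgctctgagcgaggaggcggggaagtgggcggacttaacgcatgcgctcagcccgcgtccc
Mrpl1: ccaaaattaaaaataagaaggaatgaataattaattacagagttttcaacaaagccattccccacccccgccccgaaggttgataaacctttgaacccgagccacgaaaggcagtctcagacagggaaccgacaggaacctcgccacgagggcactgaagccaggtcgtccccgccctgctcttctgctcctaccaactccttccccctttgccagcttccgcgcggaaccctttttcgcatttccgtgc
The 4 cores of Mrpl32, 2 of them side by side, stand before a gene with 406 and 401 adjusted counts in SD and 397 and 345 in OD, a log2 fold change of -0.12 and an adjusted p of 0.502. The 16 member genes with an NRF1 core had a median log2 fold change of 0.08 with 7 lower, and the 51 without it a median of 0.04 with 19 lower. The 17 genes with an ETS site had a median of 0.0043 with 8 lower, and the 50 without it a median of 0.05 with 18 lower. Neither motif divided the members by direction.

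The makeup of the samples was checked with marker lists, whose counts stand beside 8.51% of all genes called. Rod markers, the defining genes of the retina, were abundant in every sample with 0 of 6 called. RPE markers were present with 1 of 5 called, Rpe65, which the study itself reports as lower in OD. Its log2 fold change was -0.52 with an adjusted p of 0.029 in limma. The other RPE markers tested ranged from -0.14 (Lrat) to 0.0024 (Rlbp1), none of them called. Of the 4 corneal epithelium markers tested, all 4 were lower in OD, with summed adjusted counts of 10375 and 10854 in SD and 2965 and 5430 in OD. Lens markers summed to 33024 and 4417 in SD and 40204 and 10750 in OD, so that they were lower in SD 2 and OD 2 than in SD 1 and OD 1. Of the 4 blood markers tested, 2 were higher in OD. Markers of scleral fibroblasts summed to 15359 and 9920 in SD and 12535 and 11018 in OD, with 1 of 4 called, lower in OD. No cone, skeletal muscle or endothelial marker was called by limma (0 of 4, 0 of 6 and 0 of 4). The part of tissue makeup in the members' differences was not tested.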

How the data were processed

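RNA-seq (single reads of 50 bases) was analysed for 2 SD and 2 OD samples. The authors aligned the reads to Ensembl release 72 of the mouse with TopHat2 2.0.9 and Bowtie2 2.1.0, counted genes with HTSeq (strand setting not given in the sources used here) and used edgeR. The deposited values are a signal per gene and sample, gene counts with decimals after the authors' adjustment for library size, so no count test was run and depth is unknown. The deposited log2 columns, p-value and adjusted p-value columns hold the authors' own comparison and were not used.

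Genes reaching 10 in 2 or more samples were compared by limma (version 3.58.1, R version 4.3.3) after a log2(value + 1) transform, with variances following the mean and Benjamini-Hochberg adjustment at 0.05 over all 17784 genes. Fold changes are on that scale, which understates changes of low genes. The study describes the samples of a condition as biological replicates. The script was tested on simulated data. The members, the gene lists and the tests were chosen with earlier results of these data known. Named members are those called, the 5 highest and 5 lowest fold changes, the 5 highest and 3 lowest levels per kilobase, and 11 fixed by role. Mrpl20, Mrpl28, Mrpl32, Mrpl46, Mrps11, Rpl22l1, Uqcrb, Atp5j and the members named for the replicate block were singled out after their values were seen. GC content, lengths and overlaps came from GENCODE M21, the same assembly as the authors' release but a later annotation, and promoters from RefSeq. The GC trend was removed per sample by local regression (span 0.3), which also removes biology that follows GC content. Alternatives covered pseudocount, filter, scaling, variance prior, GC trend, replicate block, threshold and each sample left out. Figures were drawn with matplotlib 3.10.9.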

Additional observations from a re-analysis of the deposited data

How the results depend on the processing

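Across 13 alternatives for 26 named genes, 293 of 338 values kept their direction and side of the threshold, 19 lost a call with the same sign, 5 gained one and 21 changed sign, among them Guf1, which also lost its call, under both GC corrections. The count of members called, 1, was 0 with the GC trend removed, beside 1.27% of all genes, and 0 without a filter on low values, beside 6.13%. At an adjusted p under 0.1 in limma it was 2, and the share of all genes at that threshold is not given here. Without a variance trend 0 members and 0 of all genes were called by limma, with 5 members and 3586 genes at an unadjusted p under 0.05. Calls over all genes were 223 with the GC trend removed and 664 to 2557 with each sample left out. Mrpl1, Mrpl28, Mrps18c and Mrps21 were called without SD 1, when SD 2 alone stood for SD. The members' median log2 fold change ranged from -0.030 to 0.094 with each sample left out and was positive otherwise. With the GC trend removed the sign turned for Mrps30 (0.090), Mrpl50 (0.043), Mrpl54 (-0.016), Mrpl35 (0.080), Mrps12 (-0.084), Mrpl3 (0.066) and Guf1 (0.19), with the same values when the replicate block was added. When single samples were left out the values ranged from -0.057 to 0.12 for Mrpl49, -0.052 to 0.098 for Mrps12, -0.058 to 0.23 for Mrpl42, -0.014 to 0.39 for Mrpl52 and -0.0033 to 0.23 for Mrpl54, all 5 below 0 without SD 2, and Mrpl49 (-0.039) and Mrps12 also without OD 1. The cause was not tested.

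The labels number the samples 1 and 2 in each condition without saying that a number marks a shared litter or day. Deviations of same-numbered samples had a correlation of 0.319 over all genes and 0.414 over the members. With the replicate block, 3613 genes and 3 members were called (Mrpl1, Mrpl50 and Mrps18c, all lower), beside 20.3% of all genes and 14 genes each of the cytoplasmic ribosome and the nuclear respiratory chain, and with the block and the GC trend removed 4 members (Mrpl15, Mrpl42, Mrps35 and Mrps9, all higher), beside 9.03% of all genes. In that last fit mt-Rnr1 and mt-Rnr2 passed the threshold of limma, with adjusted p-values of 0.0064 and 0.0038 at log2 fold changes of -0.65 and -0.42. The test on counts that had been planned for whole reads was not run, since whole reads could not be recovered from the deposited values, and depth limits cannot be given.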

Other observations

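Beside the members, the table lists Mrp63, which encodes the large-subunit protein mL63 and falls outside the naming rule. It was singled out after its values were seen, with 596 and 553 adjusted counts in SD and 601 and 582 in OD, a log2 fold change of 0.043 and an adjusted p of 0.790 in limma. Of the 3 pseudogenes with mitoribosomal names, Mrpl48-ps had 97.9 and 113 in SD and 126 and 84.8 in OD, with overlapping conditions, and Mrpl23-ps1 and Mrps36-ps2 had at most 2.19 in any sample. Lars2, the mitochondrial leucyl-tRNA synthetase gene, was listed at 83931 and 206890 adjusted counts in SD and 97542 and 107560 in OD, whereas the other 16 synthetase genes of its list had between 189 and 2316. Its SD samples lay on both sides of the OD samples.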
